A study of Ovis aries with 18 samples.

Results

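CDH23 and CACNG4 are a pair of genes that the study names for calcium homeostasis. They were followed in the testis of 18 lambs of Santa Inês ewes. Of these lambs, 9 came from ewes on the control diet and 9 from ewes on the gossypol-rich diet. The genes are 2 of the 29589 gene IDs in the count tables, ENSOARG00000006661 for CDH23 and ENSOARG00000015817 for CACNG4. They were chosen because earlier work on these lambs had called both higher under the gossypol-rich diet. Their difference between diets is therefore given as a description and carries no test. Such a call weighs the difference against the spread within each diet, so that spread is described without a test too. The choice did not use how the genes varied with each other, with depth or with other genes among lambs of the same diet, and the tests concern those relations.

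The control diet was based on corn and soybean and the other diet on cottonseed, a feed that carries the polyphenol gossypol. Ewes received their diet from conception until 60 days after lambing, so the lambs met it in the womb and through milk, and all lambs also had creep feed, hay and mineral salt in shared pens. At 60 days of age both testicles were taken from every lamb, and RNA of the left testicle was sequenced after poly-A capture, with 1 library per lamb. Sires, litters and sequencing batches of the lambs are not given in the sources used here. Libraries of control lambs held 14468612 to 22334428 counts (median 19271048) and those of gossypol lambs 15240624 to 20660132 counts (median 19037075).

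CDH23 encodes an unusually long cadherin, an adhesion protein whose extracellular repeats are stiffened by calcium ions bound between them, and it is best known as part of the tip links of inner ear hair cells. CACNG4 encodes a membrane protein of the gamma subunit family of voltage-gated calcium channels, and members of its branch also act as auxiliary subunits of AMPA-type glutamate receptors. In the testis, calcium takes part in cell adhesion in the seminiferous epithelium, in steroid synthesis and in sperm function. In the RefSeq annotation of the sheep assembly ARS-UI_Ramb_v3.0, CACNG4 lies on chromosome 11 between its paralogs CACNG5 and CACNG1. No other ID had the counts of CDH23 in all lambs, and none had those of CACNG4.

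CDH23 was detected in every lamb, with 286 to 959 counts in control lambs and 410 to 2474 in gossypol lambs. Values are given as CPM, the count scaled to a common library size with TMM normalization. In control lambs CDH23 was at 16.0 CPM in H22, 18.04 in H29, 18.3 in H20, 18.3 in H37, 19.0 in H06, 25.5 in H32, 30.9 in H31, 42.9 in H44 and 47.8 in H39. In gossypol lambs it was at 22.6 CPM in H01, 43.0 in H10, 48.4 in H12, 54.5 in H48, 71.7 in H25, 71.9 in H35, 113 in H08, 114 in H41 and 116 in H47. The control lambs thus comprised 5 lambs close together at a low level and 4 lambs spread above them. The gossypol lambs were spread over a wider range, with H01 and H10 inside the range of the control lambs. The lowest 5 control lambs lay below every gossypol lamb, and 7 gossypol lambs exceeded the highest control lamb.

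Control lambs averaged 26.3 ± 11.8 CPM of CDH23 (SD, n = 9), and gossypol lambs averaged 72.8 ± 34.6 CPM (SD, n = 9). This was a difference of 2.77-fold, or 1.47 ± 0.29 (SE) on the log2 scale by edgeR. The diets overlapped in CDH23 and in CACNG4, and of the 18640 IDs tested 0.00536% were higher in gossypol lambs without any overlap.

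CACNG4 was counted far less often than CDH23, with 23 to 88 counts in control lambs and 53 to 343 in gossypol lambs. Levels of the 2 genes were not compared with each other, because transcript lengths were not used here and CDH23 is much the longer gene product. In control lambs CACNG4 was at 1.25 CPM in H06, 1.33 in H37, 1.596 in H20, 1.70 in H29, 1.75 in H22, 3.56 in H31, 3.84 in H44, 4.17 in H39 and 5.81 in H32. In gossypol lambs it was at 2.59 CPM in H12, 3.02 in H48, 4.50 in H10, 4.68 in H01, 9.01 in H47, 10.9 in H41, 11.2 in H08, 17.2 in H35 and 18.5 in H25. Again 5 control lambs lay below every gossypol lamb, while 5 gossypol lambs exceeded the highest control lamb. Of the other 4 gossypol lambs, H10 and H01 fell among the higher control lambs, and H12 and H48 lay between these and the 5 lowest.

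Control lambs averaged 2.78 ± 1.62 CPM of CACNG4 (SD, n = 9), and gossypol lambs averaged 9.07 ± 5.93 CPM (SD, n = 9). This was a difference of 3.27-fold, or 1.71 ± 0.40 (SE) on the log2 scale. The fold changes of the 2 genes thus lay within their standard errors of each other. Both genes were among the 2197 IDs higher in gossypol lambs at an unadjusted p under 0.05 in edgeR's quasi-likelihood test, which are 11.8% of the IDs tested, and nothing is read from this because the genes were chosen on the same contrast. Over all IDs, 0 passed an adjusted p of 0.05 in that test (0% of 18640), while 4327 (23.2%) had an unadjusted p under 0.05 in either direction. The corresponding count at an adjusted p under 0.05 was 0 with limma-voom, 666 with edgeR's likelihood ratio test and 882 with DESeq2. In the quasi-likelihood test it ran from 0 to 1271 with each lamb left out, the highest without control lamb H44, and was 492 without gossypol lamb H48. In whole testis, more cells that express a gene and more RNA per cell cannot be told apart.

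**Figure D1:**
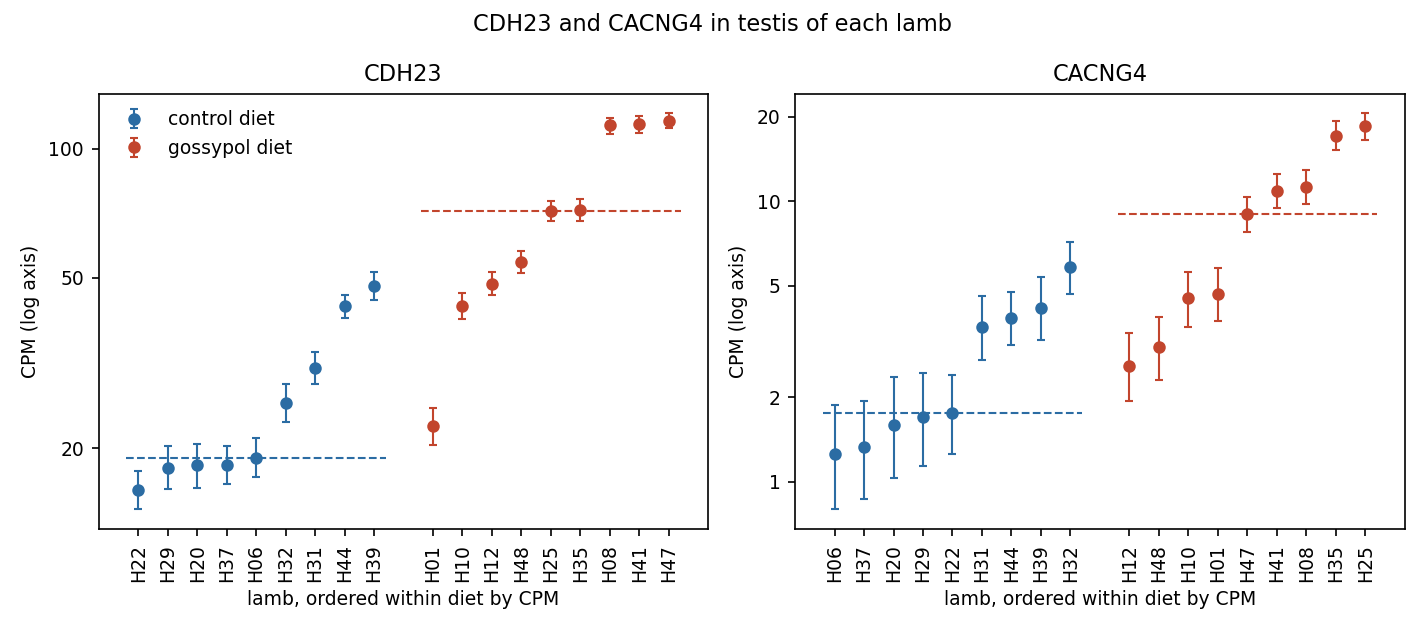
Level of CDH23 (left) and CACNG4 (right) in CPM on a log axis, 1 point per lamb, ordered within each diet, with the exact 95% Poisson interval of the count as bar and the diet's median as dashed line. In both genes 5 control lambs sit together below every gossypol lamb, with CDH23 at 16.0 to 19.0 CPM and CACNG4 at 1.25 to 1.75 CPM.

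Counting error was a small part of the spread between lambs of the same diet. For CDH23 the chi-square of the counts against a common level was 96.0 per degree of freedom in control and 310 per degree of freedom in gossypol lambs, where counting error alone gives about 1. For CACNG4 it was 16.3 in control lambs and 73.1 in gossypol lambs. These values describe precision and are no test, because separate animals vary by more than counting error. At the lowest count, 23 for CACNG4 in control lamb H06, the exact 95% Poisson interval was 14.6 to 34.5 counts, or 0.795 to 1.88 CPM. At the highest, 343 counts in gossypol lamb H25, it was 308 to 381 counts. These intervals cover counting error only.

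On the log2 scale, the SD of CDH23 among lambs was 0.59 in control and 0.79 in gossypol lambs, and 25.4% and 11.9% of all tested IDs varied more in the respective diet. The SD of CACNG4 was 0.79 in control and 1.04 in gossypol lambs, with 11.04% and 4.09% of tested IDs varying more. As a share of the mean, the SD was 44.9% and 47.5% for CDH23 and 58.2% and 65.4% for CACNG4. The spread was thus larger in gossypol lambs on the log2 scale and similar in both diets as a share of the mean, and a difference in spread between diets was not tested.

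The control lambs fell into 2 sets, which decided how far the genes could be related to each other in that diet. The first principal component of all tested IDs other than these 2 genes took 51.2% of the variance among control lambs. Its sign was set so that it ran against ADAM11, a gene described below. The largest gap of the component spanned 0.595 of its range. This gap left H06, H20, H22, H29 and H37 on the low side and H31, H32, H39 and H44 on the high side. These sets come from the data, rest on this component and are not groups of the study. Over all tested IDs, the chi-square between counts of H31 and H44, both on the high side, was 96.9 per degree of freedom. Pairs of lambs from opposite sides ran from 71.2, for H06 and H39, to 204, for H29 and H44. CDH23 ran from 16.0 to 19.0 CPM in the first 5 lambs and from 25.5 to 47.8 CPM in the other 4. CACNG4 ran from 1.25 to 1.75 CPM in the same 5 lambs and from 3.56 to 5.81 CPM in the other 4. In both genes, then, every lamb of the first set lay below every lamb of the second, and no test was made of this because the sets were found in the same libraries. The share of all tested IDs that separate the same sets was not counted, so nothing particular to the 2 genes is read from this.

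Within the low set the lambs lay close together. The chi-square per degree of freedom was 1.60 for CDH23 and 0.64 for CACNG4 over these 5 lambs, close to what counting error alone gives. Over the 4 lambs of the high set it was 45.5 for CDH23 and 3.79 for CACNG4. With 5 and 4 lambs a side, a correlation of the 2 genes across the control lambs would include the difference between the sets, so none is given. On the log2 scale the largest gap in CACNG4 lay between the sets, and that in CDH23 lay inside the high set, between H31 and H44.

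The members of the high set did not share 1 order. H39 and H44 had the most CDH23 among control lambs, while H32 had the most CACNG4 and the least CDH23 of the 4. Per count of CACNG4 there were 4.40 counts of CDH23 in H32, the lowest ratio in the control diet, and 15.2 in H06, the highest. The chi-square of this ratio was 7.40 per degree of freedom over the 9 control lambs. It was 1.17 over the 5 lambs of the low set, 14.6 over the 4 of the high set and 52.5 over the 9 gossypol lambs, given as a description.

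**Figure D2:**
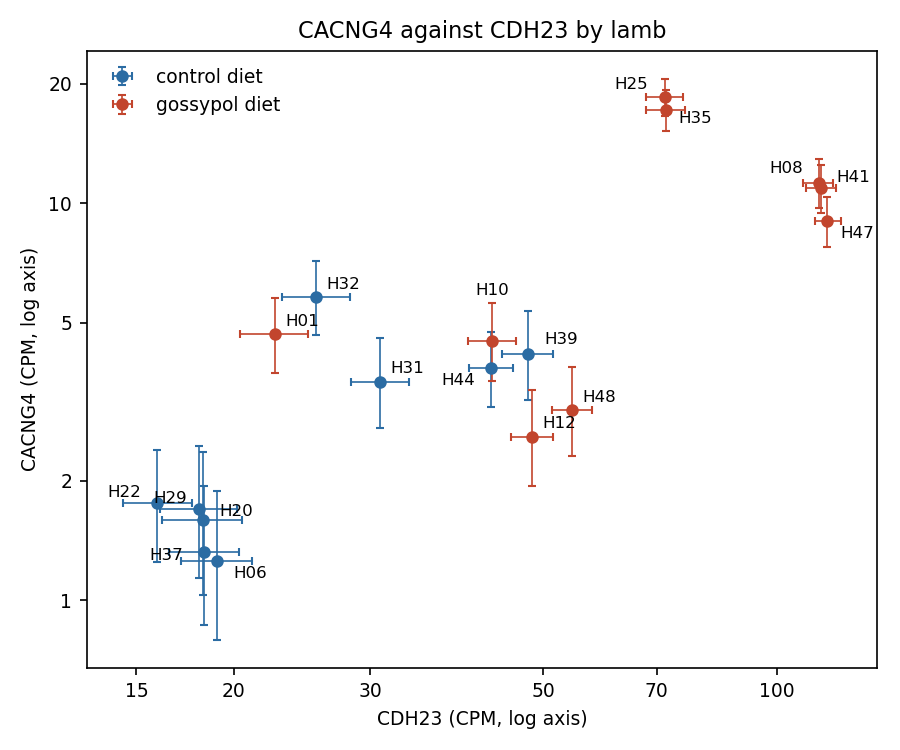
CACNG4 against CDH23, both in CPM on log axes, 1 labelled point per lamb with exact 95% Poisson intervals. The low set of 5 control lambs lies at the lower left, the gossypol lambs with the most CDH23 (H08, H41 and H47, 113 to 116 CPM) lie at the far right, and those with the most CACNG4 (H25 and H35, 18.5 and 17.2 CPM) lie at the top.

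Among gossypol lambs the levels of the 2 genes were not shown to vary together. Pearson's r of log2 CPM was 0.593 (2-sided exact permutation test over all 362880 pairings, n = 9, p = 0.0914, or 0.171 after Benjamini-Hochberg adjustment over 15 relations). Spearman's rho was 0.517 (exact permutation p = 0.162, adjusted p = 0.303). Without H01 and H10, the 2 lambs farthest from the median of CDH23, r was 0.597 over 7 lambs (exact permutation p = 0.174). With r at 0.593 in gossypol lambs, 9.61% of the other 16844 IDs with a mean of at least 1 CPM had a higher r with CACNG4, and 6.79% had a higher r with CDH23.

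The highest levels of the 2 genes were in different gossypol lambs. H08, H41 and H47 had CDH23 at 113 to 116 CPM with CACNG4 at 9.01 to 11.2 CPM. H25 and H35 had CACNG4 at 18.5 and 17.2 CPM with CDH23 at 71.7 and 71.9 CPM. The ratio of CDH23 to CACNG4 counts ran from 3.87 in H25, 4.19 in H35 and 4.82 in H01 to 18.1 in H48 and 18.7 in H12. H25 and H35 were also the most similar of all pairs of lambs within a diet over the whole transcriptome, yet the chi-square between their counts was 12.1 per degree of freedom, so they were counted as separate libraries.

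Neither gene showed a relation with depth that passed its test. With the log2 total count of the lamb, r was -0.224 for CDH23 (exact permutation p = 0.558) and -0.526 for CACNG4 (exact permutation p = 0.151) over the 9 gossypol lambs, with adjusted p of 0.697 and 0.251. Spearman's rho was -0.10 (exact permutation p = 0.81) and -0.60 (p = 0.0968). Without the shallowest lambs H08 and H35, r was 0.129 (exact permutation p = 0.774) and -0.155 (p = 0.737).

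The first principal component of the other IDs took 36.5% of the variance among gossypol lambs, with H41 at 1 end. Its r was -0.02 with CDH23 (exact permutation p = 0.949) and 0.103 with CACNG4 (exact permutation p = 0.793), with rho of 0.10 (p = 0.81) and 0.0833 (p = 0.843). Without H41 and H01, the lambs farthest out, r was 0.167 (exact permutation p = 0.705) and 0.181 (p = 0.672). Leaving out H41 alone changed the component itself. Recomputed on the other 8 lambs it had an r of 0.872 with CACNG4 (exact permutation test, adjusted p = 0.0115) and of 0.336 with CDH23 (adjusted p = 0.512). The first value is the highest for CACNG4 among the fits with 1 lamb left out, and its adjustment does not cover that choice. In the other such fits r with CACNG4 was 0.0778 to 0.342, and no adjusted p was under 0.05.

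The study's text names 3 further genes with CDH23 and CACNG4 for calcium. These are ERBB3, a receptor of the epidermal growth factor receptor family that responds to neuregulins, SMOC2, a secreted matrix protein with calcium-binding domains, and OC90, a major protein of the calcium carbonate crystals of the inner ear. All 3 were called higher on these lambs, so their levels are also given without a test. ERBB3 had a median of 3.05 CPM in control lambs (1.66 to 7.33) and of 10.5 CPM in gossypol lambs (2.15 to 20.2). SMOC2 had a median of 1.10 CPM in control lambs (0.204 to 6.21) and of 7.32 CPM in gossypol lambs (1.86 to 48.2). OC90 was near the limit of detection, with a median of 0.358 CPM in control lambs (3 to 12 counts) and of 0.771 CPM in gossypol lambs (11 to 27 counts), and its pairing with an ID is less certain.

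The relations with named genes were added after the data were seen, so those that passed the adjustment are descriptions of these lambs that need other lambs to be tested. After each diet's mean was removed, r of CDH23 with ERBB3 over all 18 lambs was 0.877, the fifth highest among 16844 IDs, with the 2 sets of control lambs contributing to it. Among gossypol lambs alone ERBB3 ranked 101 of these IDs, and r was 0.838 (2-sided exact permutation test, p = 0.00467, adjusted p = 0.035) and rho was 0.733 (exact permutation p = 0.0311, adjusted p = 0.117). H01 and H10 were lowest in both genes, at 2.15 and 5.17 CPM of ERBB3. Without these 2 lambs r was 0.394 (exact permutation p = 0.343), so the relation rests on them. The adjusted p was also above 0.05 with 1 lamb left out for H01 (0.206), H08 (0.0993), H10 (0.133), H12 (0.0672), H25 (0.0534), H47 (0.0606) and H48 (0.0692), and on the CPM scale (r = 0.665, adjusted p = 0.184). In the fits with 1 of these lambs left out, r was 0.628 without H01 and 0.815 to 0.862 in the others.

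CACNG4 showed r of 0.596 with ERBB3 (exact permutation p = 0.0842, adjusted p = 0.171), and 9.52% of 16844 IDs had a higher r with CACNG4 in gossypol lambs. The 5 gossypol lambs with the most CACNG4 were also the 5 with the most ERBB3, at 10.5 to 20.2 CPM. This match was narrow, because H48 and H12, the lowest in CACNG4, had 10.2 and 10.1 CPM of ERBB3. For CACNG4 and ERBB3 rho was 0.783 (exact permutation p = 0.0172, adjusted p = 0.117), and without H01 and H10 r was 0.798 (exact permutation p = 0.031). With SMOC2, r was 0.712 for CDH23 (exact permutation p = 0.0319, adjusted p = 0.12) and 0.285 for CACNG4 (exact permutation p = 0.455). The corresponding rho were 0.733 (exact permutation p = 0.0311) and 0.0333 (p = 0.948), and without H10 and H41 r was 0.679 (exact permutation p = 0.0938) and 0.069 (p = 0.884). With OC90, r was 0.304 for CDH23 (exact permutation p = 0.428) and 0.0435 for CACNG4 (p = 0.91), with rho of 0.10 (p = 0.81) and -0.05 (p = 0.912). Without H08 and H47 those r were -0.422 (exact permutation p = 0.327) and -0.323 (p = 0.486). None of the relations with SMOC2 or OC90 passed the adjustment.

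**Figure D3:**
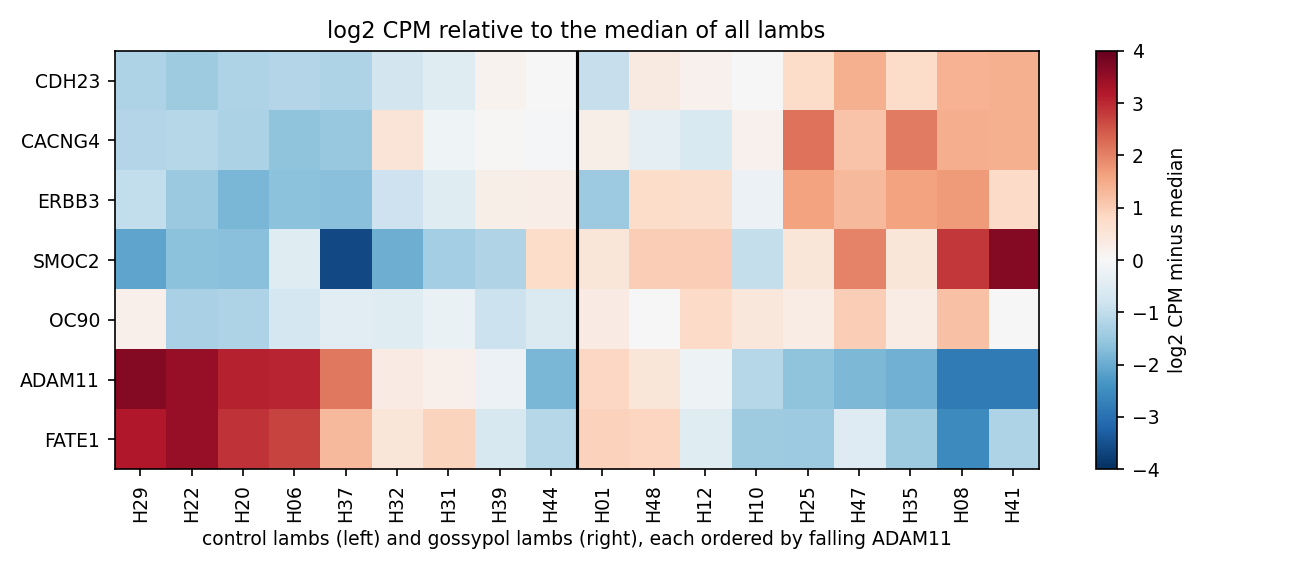
Heat map of log2 CPM minus the median of all 18 lambs for CDH23, CACNG4, the 3 other genes named for calcium, and ADAM11 and FATE1, with control lambs left and gossypol lambs right of the line, each ordered by falling ADAM11. The low set of control lambs (H29, H22, H20, H06 and H37) is low in CDH23 and CACNG4 and high in ADAM11 and FATE1.

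ADAM11, a membrane protein of the disintegrin and metalloprotease family, and FATE1, a gene expressed in fetal and adult testis, were the testis-expressed genes used here. Other testis genes that the study names were not included. Both were detected in all lambs, ADAM11 at 16.6 CPM or more and FATE1 at 19.5 CPM or more. Defining markers of Sertoli, Leydig and germ cells could not be looked up, because the files pair no symbols with IDs.

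ADAM11 ran opposite to CDH23. In the low set of control lambs ADAM11 was at 515 to 1539 CPM, against 33.6 to 151 CPM in the other 4 control lambs. The 9 gossypol lambs had 16.6 to 214 CPM of ADAM11. Among them, r of CDH23 with ADAM11 was -0.864 (2-sided exact permutation test, p = 0.00256, adjusted p = 0.035) and rho was -0.833 (exact permutation p = 0.00827, adjusted p = 0.117). By r with CDH23 in gossypol lambs ADAM11 ranked 16780 from the top of 16844 IDs, so other IDs ran more opposite to CDH23. Without H01 and H48, the lambs with the most ADAM11, r was -0.839 (exact permutation p = 0.0212, not adjusted). The adjusted p was above 0.05 when H01 (0.108), H08 (0.0993), H12 (0.0672) or H25 (0.0534) was left out, and on the CPM scale (0.0851). In these fits r was -0.791, -0.838, -0.859, -0.863 and -0.77, respectively. The call was thus lost in fits where r was similar or somewhat weaker. The gossypol lamb with the least CDH23, H01, had the most ADAM11, and H41 and H08, with 114 and 113 CPM of CDH23, had the least.

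For CACNG4 with ADAM11, r was -0.757 (exact permutation p = 0.0227, adjusted p = 0.114), rho was -0.65 (exact permutation p = 0.0666), and r without H01 and H48 was -0.706 (exact permutation p = 0.072). This relation had the same sign and did not pass the adjustment. Of 16844 IDs, 97.2% had a higher r with CACNG4 in gossypol lambs than ADAM11 had. With FATE1, r was -0.627 for CDH23 (exact permutation p = 0.072) and -0.638 for CACNG4 (exact permutation p = 0.0669), each with an adjusted p of 0.171. The rho with FATE1 were -0.367 (exact permutation p = 0.336) and -0.667 (p = 0.0589), and r without H01 and H48 was -0.24 (exact permutation p = 0.637) and -0.456 (p = 0.307). FATE1 was at 285 to 1289 CPM in the low set of control lambs and at 51.8 to 212 CPM in the high set. Thus ADAM11 and FATE1 were lower in the set of control lambs in which both members were higher. The share of all tested IDs that separate these sets was not counted, so this is a description only. The part of ADAM11 and FATE1 in the difference between diets was not tested.

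**Figure D4:**
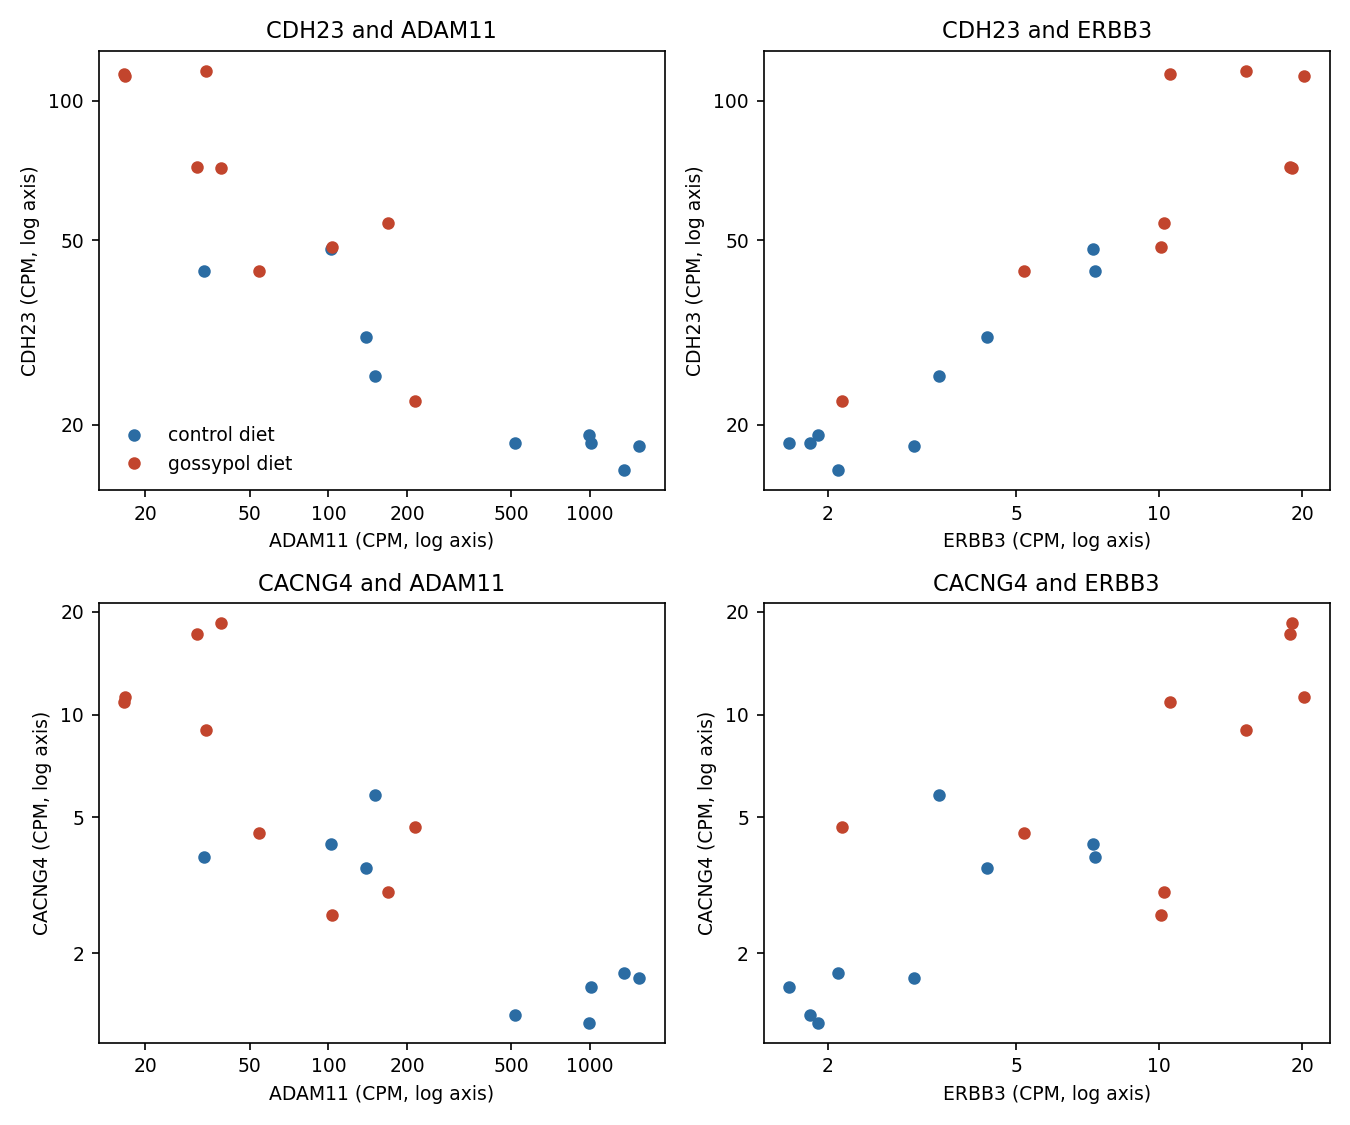
CDH23 (top) and CACNG4 (bottom) against ADAM11 (left) and ERBB3 (right), all in CPM on log axes, 1 point per lamb. Among gossypol lambs CDH23 is higher where ADAM11 is lower (r = -0.864), and the 5 control lambs with ADAM11 at 515 to 1539 CPM hold the lowest levels of both members.

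Set beside the 4 control lambs of the high set, 7 gossypol lambs lay above them in CDH23, H10 lay among them and H01 below. In CACNG4, 5 gossypol lambs lay above these 4 control lambs, H10 and H01 among them and H12 and H48 below. CDH23 had a median of 36.9 CPM in these 4 control lambs, of 18.3 CPM in the low set and of 71.7 CPM in the gossypol lambs. CACNG4 had medians of 4.01, 1.596 and 9.01 CPM, respectively. These medians are descriptions, since the 2 sets of control lambs came from the data.

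The IDs with the highest r to each member over 18 lambs, after removal of the diet means, carry no symbols in the files. This r includes the gap between the 2 sets of control lambs, so the rank in the 9 gossypol lambs is given with it. For CDH23 they were ENSOARG00000016578, with r of 0.906 over 18 lambs and 0.93 over the 9 gossypol lambs (rank 10), and ENSOARG00000008000, with 0.899 on both counts (rank 26 in gossypol lambs). For CACNG4 they were ENSOARG00000011674, with r of 0.918 and 0.906 (rank 79 in gossypol lambs), and ENSOARG00000016754, with 0.914 and 0.925 (rank 41). Of 16844 IDs, CACNG4 ranked 1145 in likeness to CDH23 in gossypol lambs, and CDH23 ranked 1619 in likeness to CACNG4. Over 18 lambs r of the pair was 0.661, and these ranks were 553 and 1058. These ranks describe the libraries and carry no test.

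The size of the difference between diets changed little without any 1 lamb. When lambs were left out 1 at a time, the log2 difference of CDH23 ran from 1.36, without gossypol lamb H47, to 1.62, without control lamb H39. That of CACNG4 ran from 1.51, without gossypol lamb H25, to 1.92, without control lamb H32. Leaving out any lamb of the low control set lowered both fold changes, to 1.40 to 1.42 for CDH23 and 1.61 to 1.64 for CACNG4. This direction follows from these lambs being the lowest control lambs in both genes.

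**Figure D5:**
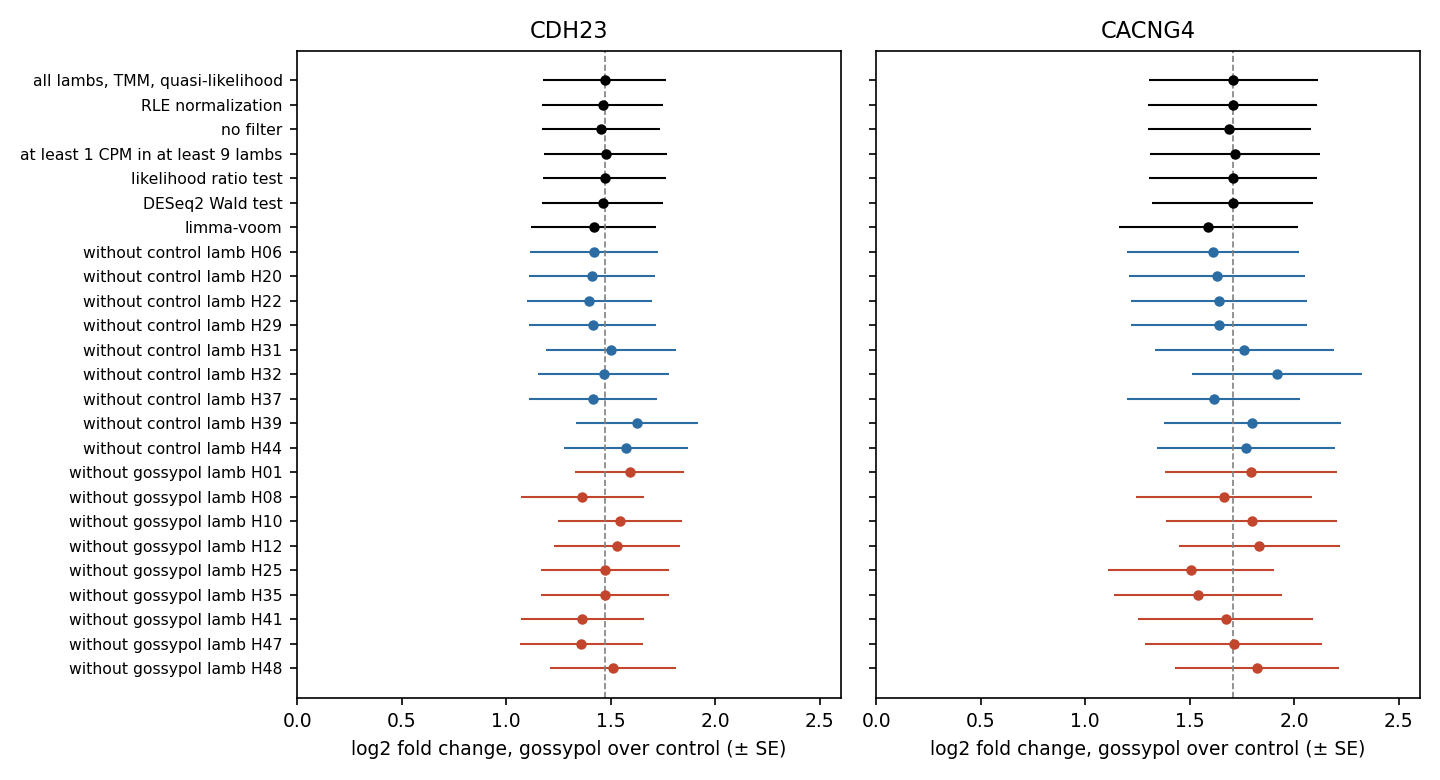
Log2 fold change of CDH23 (left) and CACNG4 (right), gossypol over control, with its standard error, for all lambs under each normalization, filter and test (black) and with 1 control lamb (blue) or 1 gossypol lamb (red) left out. CDH23 stays between 1.36 and 1.62 and CACNG4 between 1.51 and 1.92.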

How the data were processed

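Testis RNA of 18 lambs, 9 per maternal diet, was examined in 1 deposited file per lamb. Per the labels and the methods of the study, the authors trimmed reads with Trim Galore 0.4.4, aligned them to Oar_v3.1 with TopHat2 2.1.1, assembled transcripts with Cufflinks 2.2.1 and counted single-end reads per gene ID with htseq. The deposited values are these raw counts, and the strand setting of the counting is not given in the sources used here, so reads of overlapping antisense genes may be included. Lambs were grouped by the treatment label.

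The fit used edgeR 4.0.16 under R 4.3.3. After removal of weak IDs by filterByExpr (at least 10 counts in enough lambs, at least 15 in total) and TMM scaling, the quasi-likelihood model was fitted over 18640 IDs. Standard errors were taken as the absolute log2 fold change over the root of the F statistic. Log2 CPM used a prior count of 2. At depths of 14468612 to 22334428 counts, CACNG4 had as few as 23 counts in a lamb. Relations between lambs were tested by exact permutation of all pairings, with Benjamini-Hochberg adjustment over the 15 relations in gossypol lambs. Of these, the 10 with SMOC2, ERBB3, OC90, ADAM11 and FATE1 were added after the data were seen. The 10 relations first planned included 5 in control lambs, whose values were seen before they were left out because those lambs fell into 2 sets. The quasi-likelihood fit and the permutation test of r were tested on simulated data.

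The members, lists and tests were chosen with earlier results of these data known. Genes were named by rule: the members, the genes the study's text names with them for calcium, ADAM11 and FATE1, and for each member the 2 IDs of highest r among IDs with a mean of at least 1 CPM. Symbols were paired with IDs from the study's list of called IDs and its labelled plot. The names SMOC2, ERBB3, OC90, ADAM11 and FATE1 all rest on that pairing. The RefSeq table gave 0 symbols with an Ensembl ID, so lists of calcium channel, calcium store and cadherin genes and of testis cell markers were not measured.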

Additional observations from a re-analysis of the deposited data

How the results depend on the processing

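Scaling by RLE, all IDs kept, only IDs with 1 CPM or more in 9 or more lambs, the likelihood ratio test, DESeq2 1.42.0 and limma-voom (limma 3.58.1) kept the log2 fold change of CDH23 between 1.42 and 1.48 and that of CACNG4 between 1.59 and 1.72. The number of IDs at an adjusted p under 0.05 was 0 in the quasi-likelihood test and in limma-voom, 666 in the likelihood ratio test and 882 in DESeq2, and ran from 0 to 1271 with each lamb left out, the highest without control lamb H44. It was 106 without control lamb H32, 66 without H39, 19 without gossypol lamb H01 and 492 without H48. The correlation of the 2 genes in gossypol lambs ran from 0.563 to 0.640 with each lamb left out and was 0.469 at its lowest among the other settings, never past an adjusted p of 0.05. The relation of CDH23 with the first principal component changed sign, at 0.10 by Spearman's rho and 0.14 on the CPM scale. It ran from -0.0251 to 0.511 with each lamb left out. In every fit the sign of the component was set so that it ran against ADAM11 among the lambs used. The component itself was recomputed with each lamb left out, so a change of sign there is not read. That of CACNG4 was -0.0468 on the CPM scale and ran from 0.0778 to 0.872 with each lamb left out, the highest without H41. CACNG4 with OC90 also changed sign, at -0.05 by rho, -0.0268 on the CPM scale and -0.188 to 0.219 with each lamb left out. The causes were not tested. CDH23 with ADAM11 ran from -0.927 to -0.791 with each lamb left out, and lost an adjusted p under 0.05 without H01 (0.108), H08 (0.0993), H12 (0.0672) or H25 (0.0534), by rho (0.117) and on the CPM scale (0.0851). CDH23 with ERBB3 ran from 0.628 to 0.907, and lost it in 7 of the 9 fits with a lamb left out, as well as by rho and on the CPM scale. No paired analysis was possible because the lambs are separate animals and no lamb number is shared between diets. Depth limits OC90 and SMOC2 most, with as few as 3 and 4 counts in a control lamb, and CACNG4 had as few as 23.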
